A study of Homo sapiens with 12 samples.

Results

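The NF-kB transcription factors and the genes that hold them in check were followed in a human ovarian cancer cell line with and without small interfering RNA (siRNA). The list was set by name, with earlier results of these data known. It holds 10 genes: the subunits NFKB1, NFKB2, RELA and RELB, the inhibitors NFKBIA, NFKBIE and TNFAIP3, and the target genes BIRC3, IER3 and ICAM1. Of these, 9 genes had a probe in the probe-to-gene table, with 11 probes in all, and 8 genes with 9 probes were bright enough to be tested, among 11273 genes and 18126 probes tested of the 48803 on the array. No probe of BIRC3 was named in that table, so BIRC3 was not analysed here. The ICAM1 probe, above background on 2 of the 12 arrays, and 1 of the 3 NFKB2 probes, above it on 0, were not tested. All 9 tested probes lay above background on all 12 arrays, so none entered the test through 1 group alone.

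The study set 3 groups of SKOV3ip cells, a subline of the ovarian adenocarcinoma line SKOV3, side by side on Illumina bead arrays, with 4 arrays per group. Untransfected cells received no siRNA, control siRNA cells received a scrambled siRNA, and EZH2 siRNA cells received an siRNA against EZH2, the histone methyltransferase of Polycomb repressive complex 2. The titles name SKOV3ip and the source field SKOV3. The labels give no siRNA sequence, dose or time after transfection, and name no group given transfection reagent alone. No label says that arrays within a group stem from separate cultures, so p-values reflect variation among arrays alone, which could be technical only.

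NF-kB factors are dimers of p50 (made from NFKB1), p52 (made from NFKB2), RELA, RELB and REL. In resting cells IkB proteins such as the product of NFKBIA keep them in the cytoplasm; double-stranded RNA sensors, cytokine receptors and other triggers activate IkB kinase, which marks IkB for destruction and frees the dimer to enter the nucleus. The dimers switch on many genes, among them their own subunits NFKB1, NFKB2 and RELB and their own brakes NFKBIA, NFKBIE and TNFAIP3, which makes this circuit a standard example of negative feedback.

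DNA upstream of 4 of the genes is shown because NF-kB dimers are known to bind sites of the kappaB consensus in the promoters of their feedback genes. The windows are from RefSeq (GRCh38.p14), run from 250 bases before a transcript start to 50 after it, and are written 5′ to 3′ on the strand of the gene. Capitals mark matches on either strand to the kappaB consensus GGGRNNYYCC, where R is A or G, Y is C or T and N is any base.

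TNFAIP3, chr6:137867009-137867308, plus strand: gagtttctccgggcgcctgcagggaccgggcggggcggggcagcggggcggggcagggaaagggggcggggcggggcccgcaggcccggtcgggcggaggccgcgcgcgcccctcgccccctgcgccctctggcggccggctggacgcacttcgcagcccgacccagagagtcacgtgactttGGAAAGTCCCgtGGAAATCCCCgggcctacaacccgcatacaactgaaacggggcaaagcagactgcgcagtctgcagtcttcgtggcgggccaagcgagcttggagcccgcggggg

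NFKBIA, chr14:35404700-35404999, minus strand: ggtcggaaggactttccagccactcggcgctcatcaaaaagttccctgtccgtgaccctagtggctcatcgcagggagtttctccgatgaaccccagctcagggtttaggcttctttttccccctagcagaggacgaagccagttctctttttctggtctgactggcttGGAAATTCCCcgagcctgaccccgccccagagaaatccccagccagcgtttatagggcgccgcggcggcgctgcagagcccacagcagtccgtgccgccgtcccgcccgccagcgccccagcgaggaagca

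NFKB2, chr10:102394328-102394627, plus strand, the second of 3 starts in the table: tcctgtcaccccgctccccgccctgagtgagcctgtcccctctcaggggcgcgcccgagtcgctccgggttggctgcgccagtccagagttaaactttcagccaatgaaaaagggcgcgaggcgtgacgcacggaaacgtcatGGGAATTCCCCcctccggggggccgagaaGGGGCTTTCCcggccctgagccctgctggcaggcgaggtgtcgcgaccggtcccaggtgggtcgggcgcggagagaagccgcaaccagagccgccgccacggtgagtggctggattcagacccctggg

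RELA, chr11:65663808-65664107, minus strand, the first of 2 starts: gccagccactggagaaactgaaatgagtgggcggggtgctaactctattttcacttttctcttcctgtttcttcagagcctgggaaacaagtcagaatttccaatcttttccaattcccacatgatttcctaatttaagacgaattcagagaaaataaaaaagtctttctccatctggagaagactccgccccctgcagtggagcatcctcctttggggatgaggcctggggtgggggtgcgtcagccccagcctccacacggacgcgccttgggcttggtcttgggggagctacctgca

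The TNFAIP3 window holds 2 matches, the NFKBIA window 1 and this NFKB2 window 3, 2 of which overlap in 1 run of capitals, and the RELA window holds 0. Of the 10 genes, 7 had windows in the table, 11 windows in all, and 6 windows of 5 genes (NFKB1, NFKB2, NFKBIA, TNFAIP3 and BIRC3) held a match. The same consensus was found in 11.3% of all 35116 windows of this length. The windows without a match were the second of NFKB1, the first of NFKB2, both of RELA and that of ICAM1. A match in letters is a description of the window and does not show that a factor binds there. Whether matches go with the calls was not tested.

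Mean raw signal was 299 ± 106 intensity units in untransfected arrays (SD, n = 4). It was 327 ± 41.7 for the control siRNA and 240 ± 50.2 for the EZH2 siRNA. The dimmest arrays were untransfected array 4 (156.7), EZH2 siRNA array 1 (186) and EZH2 siRNA array 4 (210). Levels below are log2 intensities after background correction and quantile normalisation, and a probe was called at an adjusted p under 0.05 in limma. The brightest tested probe stood for a gene, and levels of different probes are not compared with each other. The target of the siRNA was checked first: the brightest EZH2 probe read 7.47, 7.67, 7.73 and 7.36 on the control siRNA arrays and 6.51, 6.80, 6.95 and 6.45 on the EZH2 siRNA arrays, with no overlap. EZH2 fell by 0.88 on the log2 scale (SE 0.14, adjusted p = 0.00144 in limma), a second probe fell by 0.67 and the third had −0.53 (adjusted p = 0.0185 and 0.0618 in limma). With control siRNA against untransfected cells the 3 probes had −0.43, −0.62 and −0.42 in the same order, the second of them called (adjusted p = 0.0895, 0.0201 and 0.130 in limma). The fall of the brightest probe between both siRNAs was not called under 1 of 27 alternatives, a 75th percentile scaling over probes that exceeded background on every array. Keratins KRT7, KRT8, KRT18 and KRT19, EPCAM, PAX8, ERBB2 and MUC1 were above background, as the epithelial markers of such a line, while CDH1 and CLDN4 were not tested. With control siRNA against untransfected cells KRT7 fell by 0.53 and PAX8 rose by 0.66, and with EZH2 siRNA PAX8 rose by 0.53 and ERBB2 by 0.50. Between both siRNAs 0 of the 8 were called in limma, and 3 had an unadjusted p under 0.05.

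In all, 7 of the 8 tested genes rose in cells given the scrambled control siRNA, compared with untransfected cells, and 0 fell. TNFAIP3 changed most, 3.00-fold, and NFKBIA, IER3, RELB, NFKB2, NFKB1 and NFKBIE rose by 1.38- to 1.60-fold, while RELA did not pass the test. Of all 11273 tested genes, 4.75% were called higher and 2.87% lower in this comparison. The median log2 fold change of the 8 genes was 0.55 against 0.02 for all tested genes. Because the genes were chosen with earlier results of these data known, such contrasts with all tested genes describe the list and do not test it. After EZH2 siRNA, 6 of the 8 genes were higher than in untransfected cells and 0 lower, against 9.92% of all genes called higher and 8.29% lower. Between both siRNAs, TNFAIP3 was lower and IER3 higher with EZH2 siRNA, and the other 6 genes did not pass the test. In that comparison 2.02% of all genes were called higher and 2.73% lower. In bulk RNA, a change in the share of responding cells and a change in RNA per cell cannot be told apart. The comparisons share arrays, so their values are set side by side and not as independent evidence.

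**Figure D1:**
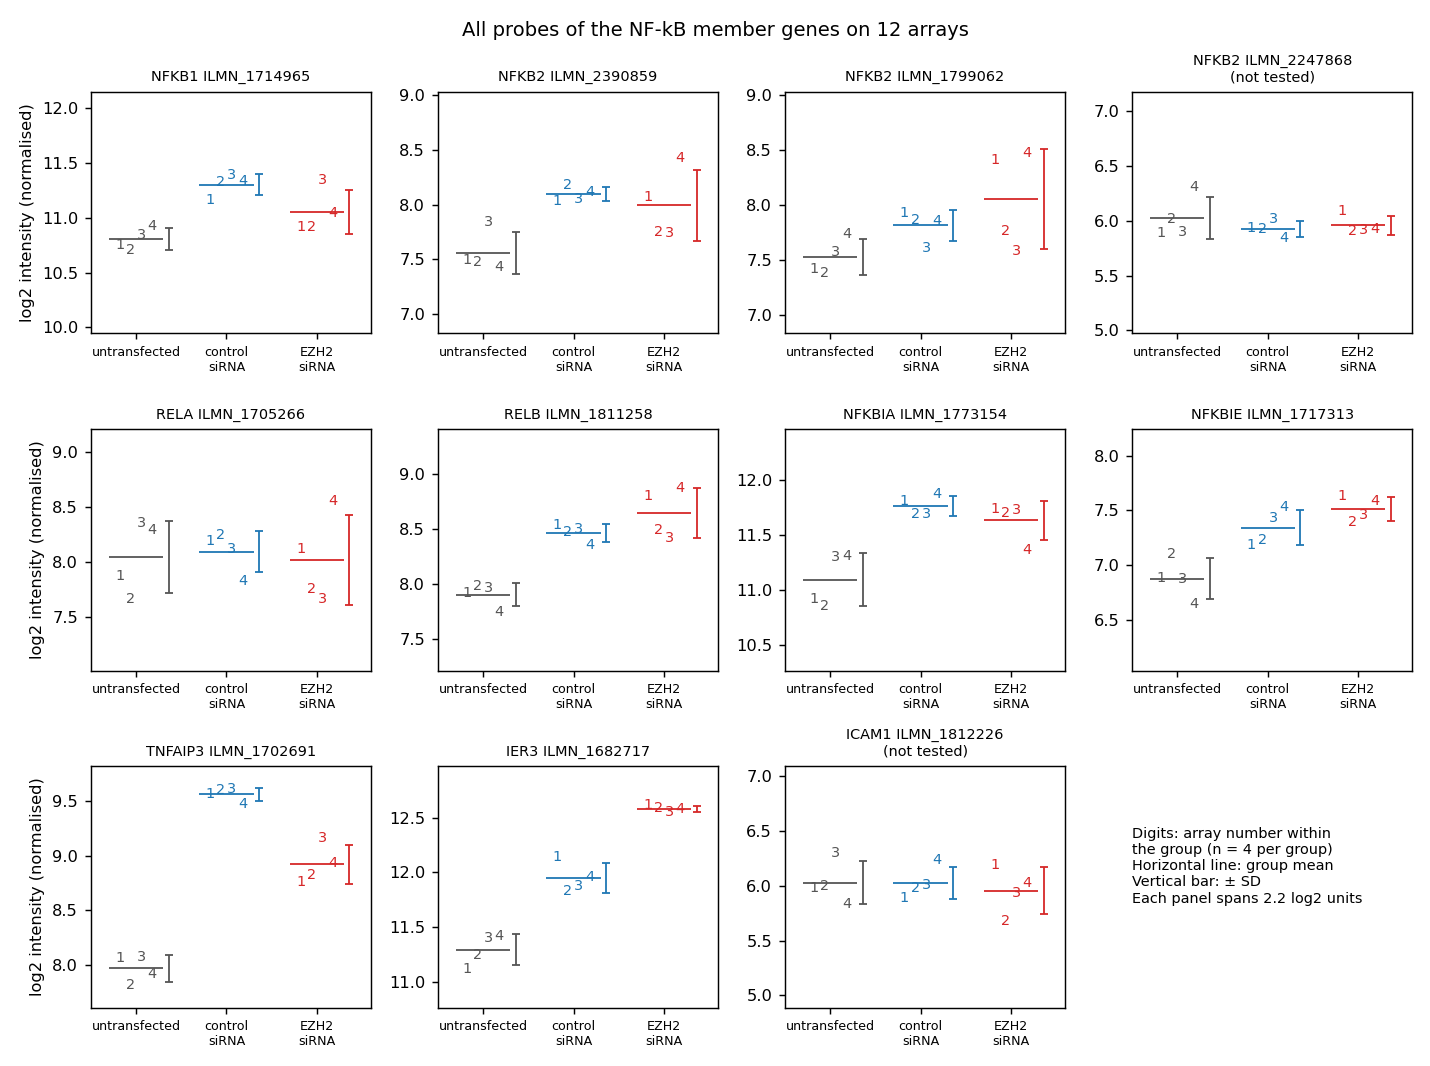
Normalised log2 intensity of all 11 probes on the 12 arrays; digits give the array number within a group, horizontal lines the group mean and vertical bars ± SD (n = 4). In the TNFAIP3 panel the 3 groups form separate bands with control siRNA on top, and in the IER3 panel separate bands with EZH2 siRNA on top.

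Among the subunits, NFKB1 encodes the p105 precursor of p50. Its untransfected arrays read 10.75, 10.70, 10.84 and 10.93. The control siRNA arrays read 11.16, 11.32, 11.39 and 11.33, and the EZH2 siRNA arrays 10.91, 10.91, 11.34 and 11.05. All control siRNA arrays lay above all untransfected arrays, whereas EZH2 siRNA array 3 reached the control siRNA range and EZH2 siRNA arrays 1 and 2 lay within the untransfected range. NFKB1 rose by 0.50 with control siRNA (SE 0.12, adjusted p = 0.0132 in limma, exact permutation p = 0.0286, the smallest possible). EZH2 siRNA against control siRNA gave −0.25 (95% confidence interval −0.49 to −0.0045, adjusted p = 0.261 in limma), and against untransfected cells 0.25 (adjusted p = 0.162 in limma). Its group means were thus ordered untransfected, EZH2 siRNA, control siRNA, with the middle group not told apart from either neighbour by the test. The call with control siRNA was lost under 4 of 27 alternatives, with an adjusted p up to 0.153 in limma. Without control siRNA array 3 the rise had an adjusted p of 0.0515 in limma.

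NFKB2 encodes the p100 precursor of p52, which works mostly in the non-canonical pathway and also acts as an IkB. Its brightest probe (ILMN_2390859) read 7.50, 7.47, 7.84 and 7.43 on the untransfected arrays. It read 8.04, 8.18, 8.05 and 8.11 with control siRNA and 8.07, 7.75, 7.74 and 8.42 with EZH2 siRNA. Control siRNA arrays were tightly grouped above the untransfected arrays, and EZH2 siRNA arrays spread on both sides of them. The probe rose by 0.53 with control siRNA (SE 0.14, adjusted p = 0.0288 in limma) and by 0.43 with EZH2 siRNA against untransfected cells (SE 0.14, adjusted p = 0.0436 in limma), where arrays overlapped. Between both siRNAs it had −0.10 (95% confidence interval −0.40 to 0.20).

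The second NFKB2 probe (ILMN_1799062) did not give the same order. It read 7.42, 7.39, 7.57 and 7.74 on the untransfected arrays, 7.93, 7.87, 7.61 and 7.86 with control siRNA and 8.41, 7.76, 7.58 and 8.48 with EZH2 siRNA. Its control siRNA value against untransfected cells was 0.29 (95% confidence interval −0.06 to 0.64, adjusted p = 0.387 in limma), and it rose by 0.53 with EZH2 siRNA (adjusted p = 0.0387 in limma). On both probes EZH2 siRNA arrays 1 and 4 were the highest of their group, and these are the 2 dimmest EZH2 siRNA arrays. Without the 3 dimmest arrays of the series the brightest NFKB2 probe had 0.15 against untransfected cells (adjusted p = 0.623 in limma). The third NFKB2 probe (ILMN_2247868) was above background on 0 of the 12 arrays. The NFKB2 call with control siRNA was lost under 12 of 27 alternative settings (adjusted p up to 0.333 in limma), and that with EZH2 siRNA against untransfected cells under 19 of 27. Leaving out any single control siRNA array, or untransfected array 1, 2 or 4, ended the first of these calls, with adjusted p from 0.0594 to 0.0802 in limma.

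RELA, the activating partner of p50 in the canonical dimer, showed no detected difference. The untransfected arrays read 7.87, 7.66, 8.35 and 8.29, the control siRNA arrays 8.19, 8.24, 8.12 and 7.83 and the EZH2 siRNA arrays 8.11, 7.75, 7.66 and 8.56. All groups overlapped, and the spread within the untransfected and EZH2 siRNA groups was the widest of the tested genes by the brightest probe. Control siRNA differed from untransfected cells by 0.05 (95% confidence interval −0.33 to 0.43, adjusted p = 0.928 in limma). EZH2 siRNA gave −0.07 against control siRNA (−0.46 to 0.31) and −0.02 against untransfected cells (−0.40 to 0.36). Each RELA value changed sign under some alternatives. Across the 12 arrays, deviations of RELA from its group mean went with dimmer arrays (Pearson r = −0.66 with mean log2 raw signal, over arrays that share their processing). IER3 came next at −0.60, and the other tested genes ran from −0.34 (NFKBIA) to 0.40 (NFKBIE). With array brightness as a covariate the RELA values were 0.15, −0.34 and −0.19 in the same order of comparisons, none called in limma (adjusted p = 0.670, 0.339 and 0.440).

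RELB is the partner of p52 in the non-canonical dimer. Untransfected arrays read 7.92, 7.98, 7.96 and 7.75. Control siRNA arrays read 8.54, 8.47, 8.50 and 8.35, and EZH2 siRNA arrays 8.80, 8.50, 8.42 and 8.87. Both siRNA groups lay wholly above the untransfected arrays and overlapped each other; EZH2 siRNA arrays 1 and 4 were the highest here too. RELB rose by 0.56 with control siRNA (SE 0.12, adjusted p = 0.00610 in limma) and by 0.74 with EZH2 siRNA against untransfected cells (SE 0.12, adjusted p = 0.000289 in limma). Between both siRNAs the difference was 0.18 (95% confidence interval −0.07 to 0.43, adjusted p = 0.463 in limma), which turned to −0.15 under a 75th percentile scaling and to −0.012 without the 3 dimmest arrays.

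**Figure D2:**
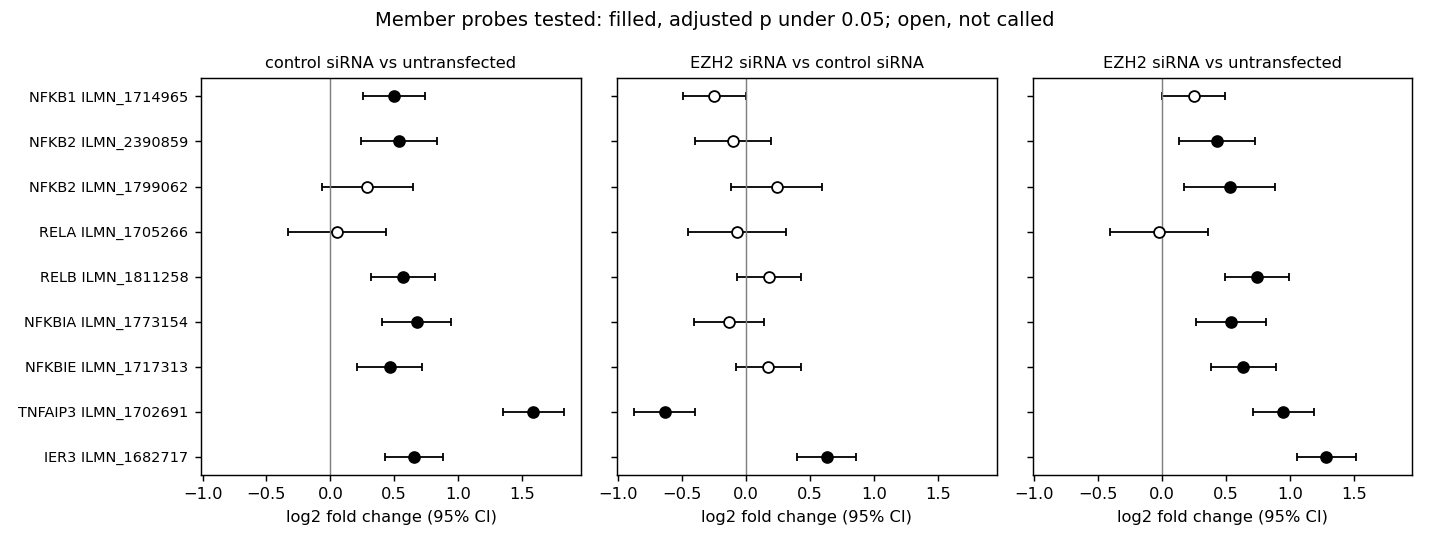
Log2 fold changes of the 9 tested probes with 95% confidence intervals in the 3 comparisons; filled points had an adjusted p under 0.05. With control siRNA all filled points lie between 0.46 (NFKBIE) and 1.59 (TNFAIP3), and in the middle panel the only filled points are TNFAIP3 at −0.64 and IER3 at 0.63.

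Among the inhibitors, NFKBIA encodes IkB alpha, which binds NF-kB dimers and carries them out of the nucleus. The untransfected arrays read 10.92, 10.85, 11.30 and 11.31. With control siRNA the arrays read 11.81, 11.70, 11.69 and 11.88, and with EZH2 siRNA 11.74, 11.71, 11.73 and 11.36. Every array of either siRNA group lay above every untransfected array. EZH2 siRNA array 4 was the lowest of the transfected arrays and stood 0.06 above the highest untransfected array, a narrow gap. NFKBIA rose by 0.67 with control siRNA (1.60-fold, SE 0.13, adjusted p = 0.00272 in limma), a call kept under all 27 alternatives. It rose by 0.54 with EZH2 siRNA against untransfected cells (adjusted p = 0.00788 in limma). That second call was lost under 1 of 27 alternatives, a 75th percentile scaling (0.45, adjusted p = 0.276 in limma). Between both siRNAs the value was −0.14 (95% confidence interval −0.41 to 0.14, adjusted p = 0.647 in limma).

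NFKBIE encodes IkB epsilon, a slower-acting inhibitor of the same family. Its untransfected arrays read 6.89, 7.11, 6.88 and 6.65. The control siRNA arrays read 7.18, 7.23, 7.43 and 7.53, and the EZH2 siRNA arrays 7.63, 7.39, 7.46 and 7.58. The lowest control siRNA array stood 0.08 above the highest untransfected array, a narrow gap, and the siRNA groups overlapped. NFKBIE rose by 0.46 with control siRNA (SE 0.12, adjusted p = 0.0254 in limma) and by 0.64 with EZH2 siRNA against untransfected cells (adjusted p = 0.00140 in limma). The first call was lost under 8 of 27 alternatives and the second under 3. Leaving out untransfected array 1, 3 or 4, or control siRNA array 3 or 4, gave the first call an adjusted p of 0.0515 to 0.110 in limma. Between both siRNAs it had 0.17 (95% confidence interval −0.08 to 0.42).

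TNFAIP3 encodes A20, a ubiquitin-editing enzyme that shuts off signalling from cytokine receptors to IkB kinase. Untransfected arrays read 8.07, 7.82, 8.07 and 7.92. With control siRNA they read 9.56, 9.60, 9.61 and 9.47, the tightest of its groups, and with EZH2 siRNA 8.75, 8.83, 9.16 and 8.94. The groups did not overlap in any comparison: control siRNA was highest, EZH2 siRNA in between and untransfected cells lowest. TNFAIP3 rose by 1.59 with control siRNA (SE 0.11, adjusted p = 1.98e-08 in limma), the 24th largest change in size among the 18126 tested probes. It fell by 0.64 from control siRNA to EZH2 siRNA (1.56-fold lower, SE 0.11, adjusted p = 0.00290 in limma). It stayed 0.95 above untransfected cells (1.93-fold, adjusted p = 1.18e-05 in limma). The fall between both siRNAs had −0.57 without the 3 dimmest arrays (adjusted p = 0.0681) and −0.64 (adjusted p = 0.0792) with a 75th percentile scaling over probes that exceeded background on every array, both in limma, and so lost its call there with a similar size.

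Among the target genes, IER3 encodes a short-lived stress protein that modulates cell survival and is induced by NF-kB as well as by other pathways. The untransfected arrays read 11.12, 11.24, 11.40 and 11.42. Control siRNA arrays read 12.14, 11.83, 11.87 and 11.96, and EZH2 siRNA arrays 12.61, 12.59, 12.55 and 12.58. The groups formed 3 separate bands, with EZH2 siRNA highest and nearly without spread (SD 0.03, n = 4). IER3 rose by 0.65 with control siRNA (SE 0.11, adjusted p = 0.000817 in limma). It rose by a further 0.63 from control siRNA to EZH2 siRNA (SE 0.11, adjusted p = 0.00247 in limma), which makes 1.28 against untransfected cells (2.44-fold, adjusted p = 1.44e-07 in limma). The difference between both siRNAs was 0.38 under a 75th percentile scaling and was not called there (adjusted p = 0.299 in limma). Deviations of IER3 from its group mean went with dimmer arrays (Pearson r = −0.60 with mean log2 raw signal). With array brightness as a covariate IER3 kept its call between both siRNAs.

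ICAM1 encodes an adhesion molecule that NF-kB induces in many cell types. Its probe was above background on 1 untransfected array, 1 control siRNA array and 0 EZH2 siRNA arrays, so no fold change is given. Its normalised values ran from 5.83 to 6.30, from 5.89 to 6.24 and from 5.68 to 6.19 in the same order, and the groups overlapped throughout.

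Genes whose arrays did not overlap were also counted. With control siRNA against untransfected cells 7 of the 8 genes had all 4 arrays higher, against 9.39% of all tested genes, and 0 had all 4 lower, against 6.12%. With EZH2 siRNA against untransfected cells 5 of the 8 did, against 9.93%, and 0 were wholly lower, against 7.78%. NFKB1, NFKB2 and RELA overlapped. Between both siRNAs IER3 was wholly higher, against 5.3% of all genes, and TNFAIP3 wholly lower, against 6.07%. Each of these separations has an exact two-sided permutation p of 0.0286, the smallest that 4 arrays against 4 allow.

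Leaving out control siRNA array 3 lowered the count of genes higher with control siRNA from 7 to 4, with NFKB1, NFKB2 and NFKBIE no longer called. The 75th percentile scaling gave 4. Its version over probes that exceeded background on every array, with a median over tested probes of −0.14, gave 3 (NFKBIA, TNFAIP3 and IER3). For EZH2 siRNA against untransfected cells the 75th percentile scaling called IER3 alone. Calls over all tested probes fell in these settings too. With control siRNA they went from 1121 to 706 without control siRNA array 3. They went to 310 with the 75th percentile scaling and to 330 with its restricted version. For EZH2 siRNA against untransfected cells they went from 2926 to 486 with the 75th percentile scaling.

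**Figure D3:**
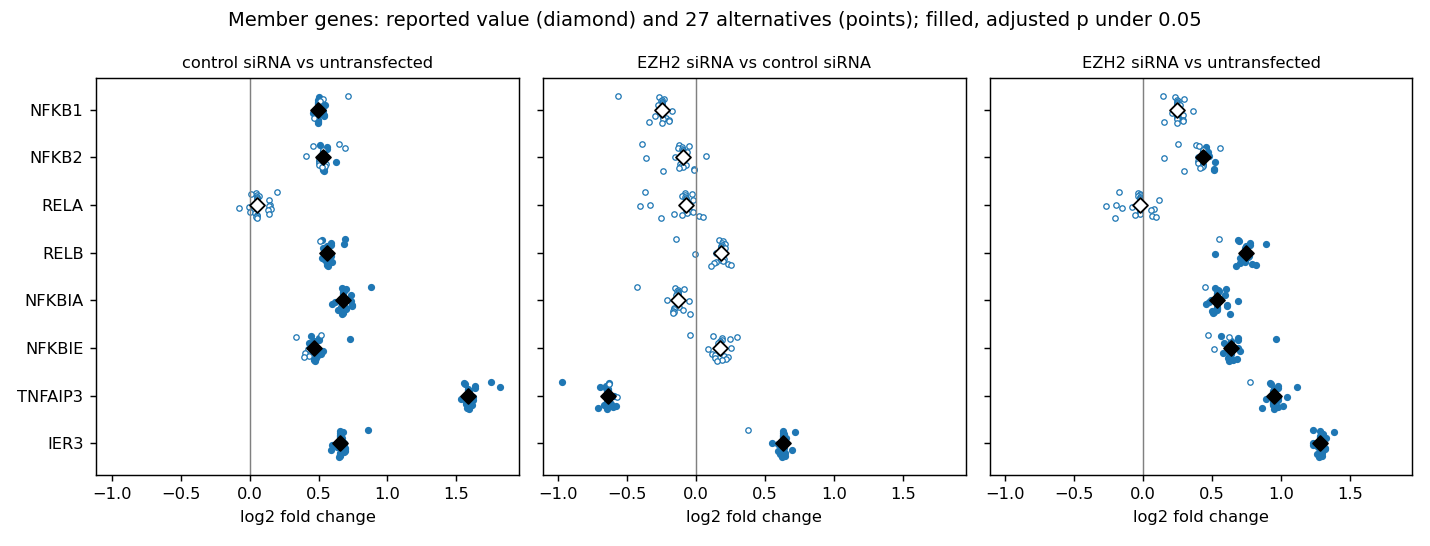
Log2 fold change of the 8 tested genes as reported (diamonds) and under 27 alternative settings (small points) in the 3 comparisons; filled symbols had an adjusted p under 0.05. TNFAIP3, IER3 and NFKBIA keep filled points throughout the left panel, while RELA spreads across 0 in all panels.

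Other genes of the pathway were read from 5 lists by role, also chosen with earlier results of these data known. The lists hold 68 genes, of which 55 were tested. In cells given control siRNA 13 of the 55 were higher than in untransfected cells and 1 was lower, against 4.75% and 2.87% of all tested genes, with a median log2 fold change of 0.10. With EZH2 siRNA against untransfected cells the counts were also 13 and 1, against 9.92% and 8.29% of all tested genes, with a median of 0.07. Between both siRNAs 1 rose and 2 fell, against 2.02% and 2.73% of all tested genes, with a median of −0.02. The medians over all tested genes were 0.02, −0.0025 and −0.02 in the same order. Under the 75th percentile scaling 8 of the 55 were called for the control siRNA and 2 for the EZH2 siRNA against untransfected cells, and 0 between both siRNAs in limma. The last count was also 0 without the 3 dimmest arrays. It was 1 without control siRNA array 2, 3 or 4 or EZH2 siRNA array 1 or 4, and 5 without EZH2 siRNA array 2 or 3. With array weights it was 8, of which 6 were higher and 2 lower. Calls over all tested probes between both siRNAs moved in the same way from 732 as reported. They were 144 with the 75th percentile scaling and 174 without the 3 dimmest arrays. Leaving out the single arrays that gave 1 called 282 to 373 probes. Those that gave 5 called 869 and 1291, and array weights called 1227.

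Of 5 tested other NF-kB and IkB proteins, NFKBIZ, a nuclear IkB that cooperates with p50, rose by 0.87 with control siRNA (SE 0.12, adjusted p = 6.62e-05 in limma). It fell by 0.58 from control siRNA to EZH2 siRNA (adjusted p = 0.00777 in limma). The control siRNA arrays read 10.08, 10.18, 10.20 and 10.29 and the EZH2 siRNA arrays 9.35, 9.73, 9.82 and 9.54, with no overlap. Against untransfected cells NFKBIZ had 0.29 with EZH2 siRNA and was not called (adjusted p = 0.0948 in limma), and those arrays overlapped. The fall between both siRNAs was not called without the 3 dimmest arrays (−0.42, adjusted p = 0.161 in limma), under either 75th percentile scaling or with the mean over both its probes (−0.27). A dimmer second NFKBIZ probe had 0.07 and 0.05 in these comparisons and was not called. BCL3, another nuclear IkB that binds p50 and p52, rose by 0.80 with EZH2 siRNA against untransfected cells (adjusted p = 0.000252 in limma). Its value with control siRNA was 0.38 (adjusted p = 0.0815 in limma).

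Among 11 tested genes of the IkB kinase complex, upstream kinases and their partners, MAP3K8, which phosphorylates MEK and is held by p105, rose with control siRNA (0.65, adjusted p = 0.00303) and with EZH2 siRNA against untransfected cells (0.57, adjusted p = 0.00476), both in limma. TAB1, a partner of the kinase TAK1, rose by 0.53 in the latter comparison. The other genes of this list did not pass the test in these comparisons, and none of the 11 did between both siRNAs (0 called in limma, 1 with an unadjusted p under 0.05).

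Of 12 tested receptors and adaptors, 3 rose and 0 fell with control siRNA, against 4.75% and 2.87% of all tested genes. The median log2 fold change of this list was 0.05. The 3 were MYD88, the adaptor of most Toll-like receptors (0.82), TICAM1, the adaptor of the double-stranded RNA receptor TLR3 (0.74), and the receptor CD40 (0.70). Their adjusted p-values were 0.00462, 0.00481 and 0.00376 in limma. All 3 were also higher with EZH2 siRNA than in untransfected cells, at 0.59, 0.70 and 0.74. In that comparison MYD88 overlapped, with EZH2 siRNA array 1 at 7.16 and the untransfected arrays from 6.78 to 7.37. Dimmer second probes of TICAM1 and CD40 had −0.07 and 0.19 with control siRNA and were not called. With EZH2 siRNA against untransfected cells these second probes had −0.07 and 0.29, also not called. BIRC2, the ubiquitin ligase cIAP1 and close relative of BIRC3, fell by 0.89 from control siRNA to EZH2 siRNA (adjusted p = 0.0425 in limma). That call was lost under 13 of 27 alternatives, among them leaving out control siRNA array 2, 3 or 4 or EZH2 siRNA array 1, 3 or 4. Against untransfected cells BIRC2 fell by 1.05 (adjusted p = 0.00596 in limma), and its second probe fell by 0.93 there. Between both siRNAs the second probe had −0.57 and was not called (adjusted p = 0.0848 in limma). Its value with control siRNA was −0.36, also not called.

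Of 13 tested ubiquitin editors and other inhibitors, 4 rose and 1 fell with control siRNA, against 4.75% and 2.87% of all tested genes. The median log2 fold change of this list was −0.11. ZC3H12A, the RNase Regnase-1 that destroys inflammatory mRNAs, rose by 1.22 (SE 0.18, adjusted p = 0.000249 in limma), and TNIP1, a binding partner of A20, by 0.71 (adjusted p = 0.00209 in limma). With EZH2 siRNA they stood 1.15 and 0.78 above untransfected cells, and between both siRNAs they had −0.07 and 0.07, neither called. SHARPIN was the called gene of this list between both siRNAs, higher by 0.47 with EZH2 siRNA (adjusted p = 0.0317 in limma), and lost that call under 11 of 27 alternatives, among them leaving out control siRNA array 2, 3 or 4 or EZH2 siRNA array 1 or 4.

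Of 14 tested other target genes, 4 rose and 0 fell with control siRNA, against 4.75% and 2.87% of all tested genes. The median log2 fold change of this list was 0.17. IRF1, a transcription factor of interferon and inflammatory genes, rose by 1.20 (SE 0.24, adjusted p = 0.00363 in limma), and GADD45B, a stress sensor that limits JNK signalling, by 0.77. SOD2, the mitochondrial superoxide dismutase, stood 0.66 above untransfected cells with EZH2 siRNA (adjusted p = 0.00100 in limma) and IRF1 1.17. Between both siRNAs 0 of the 14 were called in limma, and 3 had an unadjusted p under 0.05. A dimmer second SOD2 probe rose by 0.58 there (adjusted p = 0.0473 in limma), whereas the brightest had −0.0080.

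**Figure D4:**
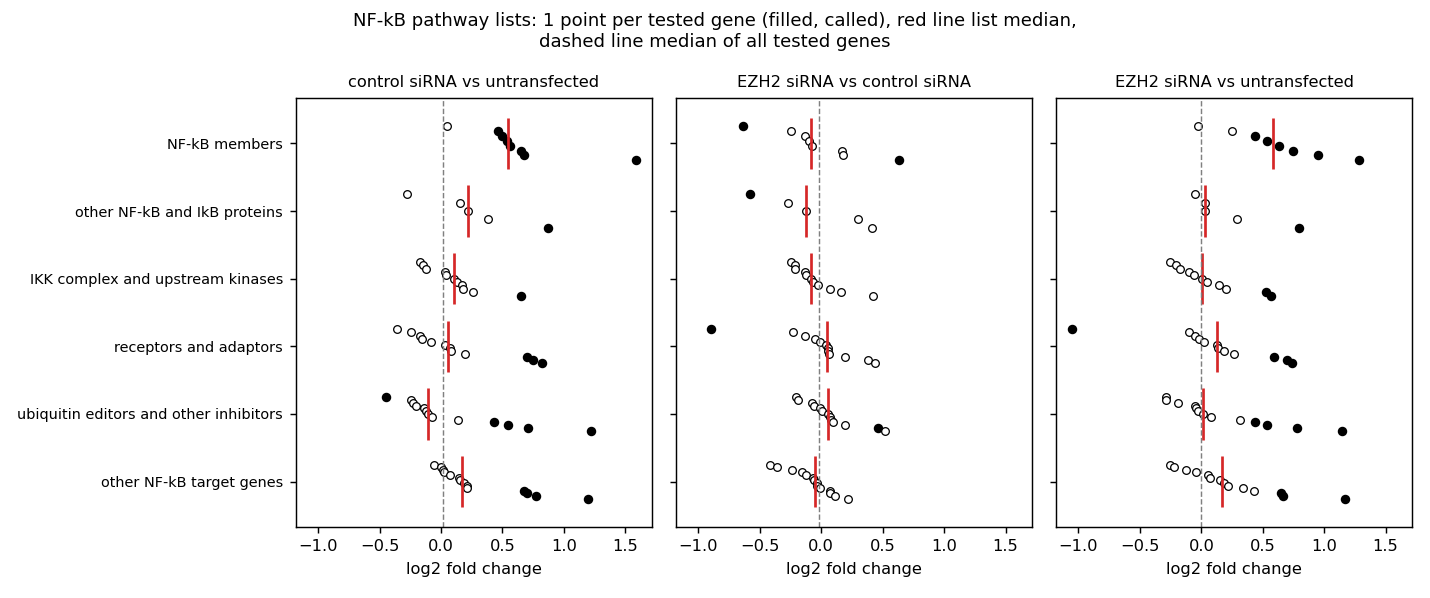
Log2 fold change of each tested gene of the 10-gene list and of 5 other NF-kB pathway lists in the 3 comparisons; filled points were called, red lines mark list medians and the dashed line the median of all tested genes. The 10-gene list has the red line farthest right in the left and right panels, at 0.55 and 0.59.

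Over the 12 arrays, the gene outside the list with the highest Pearson correlation was TFPI2 for TNFAIP3 (r = 0.98), DDIT4 for IER3 (0.97), CITED4 for RELB (0.98) and STING1 for NFKB2 (0.96). It was POLDIP3 for NFKBIE (0.97), ETV5 for NFKB1 (0.94), TNFRSF10A for NFKBIA (0.93) and ARRDC1 for RELA (0.94). These are descriptions over arrays that fall into 3 groups and each was picked as the highest among all tested genes. Within the list, TNFAIP3 went most closely with NFKB1 (r = 0.90) and NFKBIA (0.85), RELB with NFKBIE (0.90) and IER3 (0.87), and RELA with NFKB2 (0.52).

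Markers of other cell types were read beside these values. Of 9 listed leukocyte markers 8 had a probe and 2, CD68 and LYZ, were tested, while PTPRC, CD3E, CD14 and ITGAM were not above background often enough to be tested. CD68, a lysosomal protein, rose with control siRNA (0.78, adjusted p = 0.00127 in limma) and stood 1.05 above untransfected cells with EZH2 siRNA. The summed raw signal of the list ran from 563 to 1604 in untransfected arrays, 1547 to 2295 with control siRNA and 1099 to 1915 with EZH2 siRNA. Of 8 endothelial markers 4 were tested, with CDH5 and VWF among those not tested and TIE1 the 1 called gene (−0.52 with either siRNA against untransfected cells). Of 9 fibroblast markers 2 were tested and 0 called in limma, with 1 at an unadjusted p under 0.05 in each comparison. The part of these markers in the NF-kB results was not tested.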

How the data were processed

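The authors exported 1 intensity per probe and array with BeadStudio 3.2, per the submitters' processing notes. Whether it subtracted background was not stated in these sources. The most frequent signal in the exported intensities lay between 49.7 and 56.5 units on every array, so a background level was still present in them. The deposited log2 table matched log2 of those intensities after quantile normalisation to within 0.00005 and served as an alternative. With limma 3.58.1 (R 4.3.3), intensities were background-corrected by normexp (offset 50), which shrinks fold changes of dim probes, then quantile-normalised. The files carry no detection p-values, so a probe was tested if it exceeded its array's background (most frequent signal, with the spread below it mirrored) at p under 0.01 on at least 4 of 12 arrays. One model with 3 groups was fitted (lmFit, eBayes), with Benjamini-Hochberg adjustment over all 18126 tested probes.

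Symbols came from the platform annotation, updated through RefSeq: 28098 probes had 1 symbol, 13 several and 20692 none. Named are the 10 genes, EZH2, up to 2 called genes per list and comparison with the largest change, and the most correlated gene of each. The genes and lists were chosen with earlier results of these data known. The number of arrays limits precision; the median SE was 0.13. Pairing by replicate number was checked. Deviations of same-numbered arrays correlated at −0.37 to 0.46, and those of differently numbered arrays at −0.47 to 0.38. Between both siRNAs same-numbered arrays had 0.24, 0.13, 0.21 and −0.11. These ranges overlap and do not settle whether arrays were paired. The numbers were not taken as pairs, and a replicate block was run as an alternative. Figures used matplotlib 3.10.9. Alternatives covered scaling, background, filter, weights, priors, brightness, probes and leaving out each array.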

Additional observations from a re-analysis of the deposited data

Results flagged for a closer look

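Of the 27 sets of 4 arrays examined, 2 held an array far from the other 3 by Dixon's test, which marks about 5% of sets by chance. The brightest NFKB2 probe read 7.84 on untransfected array 3, against 7.43 to 7.50 on the other untransfected arrays. Without that array NFKB2 rose by 0.62 with control siRNA (adjusted p = 0.0160 in limma). NFKBIA read 11.36 on EZH2 siRNA array 4, against 11.71 to 11.74 on the other 3. Without that array NFKBIA had −0.04 between both siRNAs (adjusted p = 0.926 in limma) and stood 0.63 above untransfected cells (adjusted p = 0.00470 in limma).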

How the results depend on the processing

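Each of the 24 single-gene values (8 genes, 3 comparisons) was recomputed under 27 alternatives, 648 values in all: 582 kept direction and call, 53 kept direction and lost the call, and 13 changed sign. No value that had been called changed sign. For control siRNA against untransfected cells 7 genes were called, 4 with the 75th percentile scaling, 3 with that scaling restricted to probes detected on every array, and between 4 and 7 with single arrays left out. For EZH2 siRNA against control siRNA 2 were called, and 1 with either 75th percentile scaling or without the 3 dimmest arrays; leaving out single arrays kept 2. For EZH2 siRNA against untransfected cells 6 were called, 1 with the 75th percentile scaling, 4 without the 3 dimmest arrays and between 5 and 6 with single arrays left out. Under the restricted scaling the median over tested probes was −0.14, 0.25 and 0.15 in the 3 comparisons, against 0.0062, −0.02 and −0.0099 as reported. Sign changes in control siRNA against untransfected cells were RELA without untransfected array 1 (−0.0069) or 2 (−0.075). Between both siRNAs they were RELB (−0.15) and NFKBIE (−0.045) with the 75th percentile scaling, RELB without the 3 dimmest arrays (−0.012), NFKB2 with the mean over its probes (0.069), and RELA without EZH2 siRNA array 2 (0.017) or 3 (0.046), with −0.26 without array 4. In EZH2 siRNA against untransfected cells RELA was 0.11 with array weights, 0.079 and 0.060 without untransfected array 3 or 4, and 0.067 and 0.096 without EZH2 siRNA array 2 or 3, with −0.20 without array 4. The causes were not tested. With the replicate number as a replicate block 7, 2 and 5 genes were called in the 3 comparisons, NFKB2 losing its call against untransfected cells (adjusted p = 0.0549 in limma), and no other call changed. Counts over all probes moved more: between both siRNAs 732 probes were called, 144 with the 75th percentile scaling, 80 with the restricted scaling, 174 without the 3 dimmest arrays and 282 to 1291 with single arrays left out. The counts against untransfected cells were 1121 for the control siRNA and 2926 for the EZH2 siRNA, and 310 and 486 with the 75th percentile scaling. Probes near background, such as those of ICAM1, carry only a bound.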

Other observations

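The subunits of the linear ubiquitin chain assembly complex, which builds the chains that recruit IkB kinase and that A20 counters, differed in direction in 1 comparison. RNF31, its catalytic subunit, rose by 0.54 with control siRNA (SE 0.14, adjusted p = 0.0237 in limma), and RBCK1 rose by 0.43 (adjusted p = 0.0274 in limma). These calls were not followed singly under the alternatives. Over all pathway lists 13 genes were called higher here, but 8 with the 75th percentile scaling and 7 with its restricted version. Without untransfected array 4 or control siRNA array 3 or 4 the count was 11. SHARPIN fell by 0.45 in the same comparison (adjusted p = 0.0273 in limma). That call was lost under both 75th percentile scalings, with a normexp offset of 16, and without untransfected array 2 or 4 or control siRNA array 2, 3 or 4. Its untransfected mean was 8.08 on the log2 scale (n = 4), its control siRNA arrays read 7.71, 7.62, 7.54 and 7.64 and its EZH2 siRNA arrays 8.31, 8.02, 7.81 and 8.23, and the control siRNA arrays lay below all others. RNF31 and RBCK1 had −0.01 and 0.0033 between both siRNAs, and SHARPIN 0.02 between EZH2 siRNA and untransfected cells. These genes were singled out after their values were seen.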
